A study of Homo sapiens with 6 samples.

Results

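The 8 genes described here are BIRC2, BIRC3, BIRC5, BIRC6 and XIAP, which encode inhibitor of apoptosis proteins (IAPs), DIABLO, which encodes an antagonist of these proteins, and the initiator caspase genes CASP8 and CASP9. They were chosen by gene name, and each name matched 1 gene of the 58174 in the table. RNA was taken from cells labelled Huh-7, an established human hepatocellular carcinoma line, in 3 samples that received miR-27a-3p mimics and 3 that received a negative control, labelled NC. All 6 samples were transfected with the same lipid reagent and taken 48 h later, and the labels name no cisplatin in either group, although the series title concerns sensitivity to that drug. Whether these were separate cultures is not in the labels, so the p-values here reflect the spread among the 6 samples alone, and that spread may be technical.

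IAPs carry zinc-binding BIR domains. XIAP uses its domains to bind and block caspases directly, whereas BIRC2 and BIRC3 (cIAP1 and cIAP2) are ubiquitin ligases of the TNF receptor complexes that keep RIPK1 signalling towards NF-kappaB and hold the noncanonical NF-kappaB kinase MAP3K14 low. BIRC6 is a very large ubiquitin-conjugating enzyme, and BIRC5 (survivin) works mainly in mitosis, in the chromosomal passenger complex. DIABLO (Smac) leaves mitochondria during apoptosis and displaces caspases from IAPs. CASP8 starts the death receptor pathway and CASP9 the mitochondrial pathway on the APAF1 apoptosome.

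The mimic imitates a microRNA that pairs with messenger RNAs through its seed, so the mature sequence and the only seed matches in 3' UTRs of the 8 genes are shown first, the latter from GENCODE 29 transcripts. Capitals mark the seed, bases 2 to 8 of the microRNA, and in the gene the matched bases. Mature sequence and genomic position (chromosome 19, 13836447 to 13836467, minus strand) are from RefSeq on GRCh38.p14.
hsa-miR-27a-3p: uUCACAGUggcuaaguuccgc
XIAP match 1: ttattcatCTGTGAAaggaaaat
XIAP match 2: ttatttttCTGTGAAtaaaacgt
Both XIAP matches are of the class 7mer-A1 (CTGTGAA). They start at bases 3787 and 6748 of a 3' UTR of 6798 bases, which is chromosome X from 123910968 to 123910974 and from 123913929 to 123913935 (GRCh38, plus strand). The other 7 genes held no 8mer (ACTGTGAA), 7mer-m8 (ACTGTGA) or 7mer-A1 in their longest 3' UTR, and none in any other annotated 3' UTR. Those UTRs were 487 bases long in BIRC2, 2301 in BIRC3, 2082 in BIRC5, 995 in BIRC6, 763 in DIABLO, 1117 in CASP8 and 2952 in CASP9, against a median of 1329 bases in the 11458 tested genes searched. Of those genes 28.9% held a match of any class, so 1 of 8 genes with a match is a description of the UTRs and no finding about the mimic.

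FPKM values carry no read number, but low values cluster at 1 step in each sample, which, read as 1 fragment, implies about 17000000 to 21100000 fragments in control samples and 25100000 to 31000000 in the mimic samples. Only 8.34% to 12.3% of low values were whole multiples of that step, within 1%, so these depths are uncertain. Mimic samples listed 13007 to 13250 genes at 1 FPKM or more and controls 15109 to 15494. The median log2 fold change of the 14439 genes tested was -0.29, so a small difference has a direction only relative to a scale. Mitochondrial genes made up 32.8% and 38.9% of summed FPKM in control and mimic sample 3, and 14.6% to 24.3% in the other 4 samples. Of 12 hepatocyte and hepatoma markers, 11 lay below 1 FPKM in all 6 samples, and 9 of these, ALB, AFP and APOA1 among them, below 0.1 FPKM in all 6. APOA2, APOB, APOH, TTR and GPC3 were listed at 0 throughout, and the highest single value was 1.49 FPKM for SERPINA1 in control sample 1. The liver markers summed to 1.08 to 2.11 FPKM in the controls and 0.912 to 1.27 in the mimic samples. Within that list the liver transcription factor gene HNF4A was higher in every mimic sample (0.757 to 0.980 FPKM) than in any control (0.129 to 0.246). TF and SERPINA1 went the other way, with every mimic sample below every control. TF was at 0.160 to 0.335 FPKM in the controls and 0 to 0.0466 in the mimic samples. SERPINA1 was at 0.708 to 1.49 and 0.0787 to 0.276. Apart from HNF4A, TF and SERPINA1 the liver markers were thus at or near 0 in both groups, and the cells are named here only by their label. Summed levels of the other cell type lists ran from 0.848 to 1.64 FPKM in the controls and 0.348 to 0.552 in the mimic samples for leukocyte markers, from 1.42 to 2.94 and 0.535 to 0.854 for endothelial markers, and from 0.665 to 0.841 and 0.057 to 0.219 for squamous epithelial markers. The fibroblast list summed to 17.1 to 17.9 FPKM in the controls and 6.87 to 9.65 in the mimic samples, nearly all of it from COL1A1, while 5 of its 6 markers stayed below 1 FPKM. The part of these shifts in the results below was not tested.

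All 8 genes passed the filter of a mean of at least 1 FPKM. By limma, a linear model with moderated variances fitted over all 14439 genes, BIRC3, BIRC2 and BIRC6 were lower in the mimic samples and BIRC5 was higher, at a Benjamini-Hochberg adjusted p under 0.05. XIAP, DIABLO, CASP8 and CASP9 did not pass. Of all tested genes 39.6% were called lower and 12.0% higher, so 3 of 8 lower (37.5%) and 1 of 8 higher (12.5%) are close to the background and do not set these genes apart. The groups did not overlap in 5 of the 8, against 60.5% of all tested genes. The median log2 fold change was -0.51 over the 8 genes. Without sample 3 of both groups the counts were again 3 lower and 1 higher, beside 31.9% and 9.19% of all genes. Median-of-ratios scaling, which centres the typical gene near 0 (median 0.01), gave 2 lower and 2 higher, beside 27.4% and 26.9% of all genes. A correction for GC content and length gave 1 lower and 3 higher, beside 22.7% and 27.4%. In bulk RNA, fewer cells of a type and less RNA per cell cannot be told apart.

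**Figure D1:**
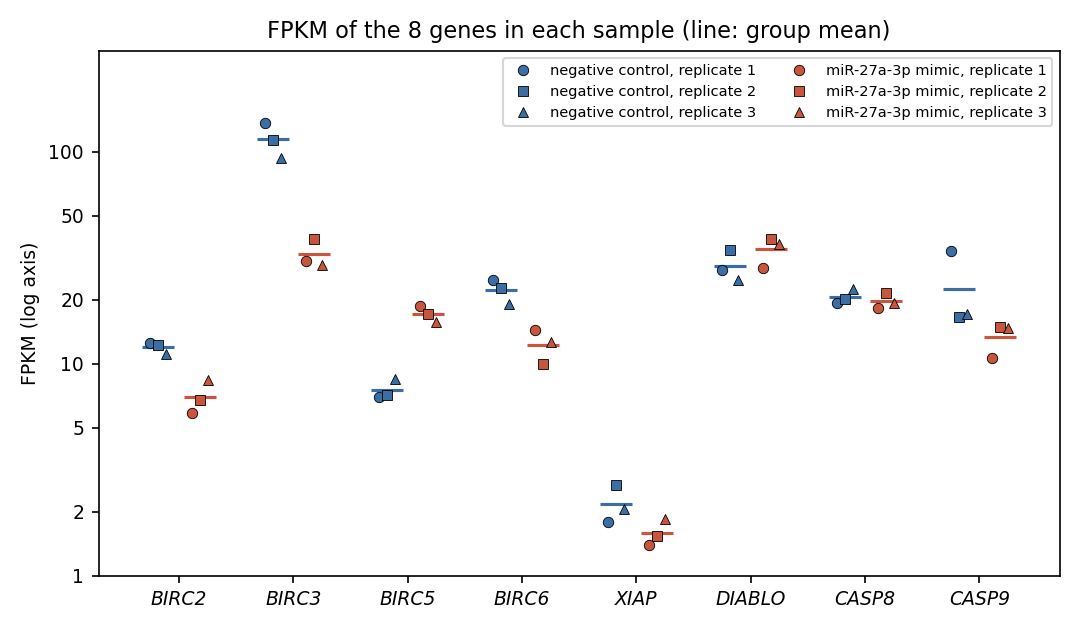
FPKM on a log axis for each gene in the 3 negative control samples (blue) and the 3 mimic samples (red), with circles, squares and triangles for replicates 1, 2 and 3 and a line at the group mean. BIRC2, BIRC3 and BIRC6 lie lower and BIRC5 higher in every mimic sample than in any control, and control sample 1 stands above the other controls for CASP9.

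BIRC3 was the most abundant of the 8 in the controls and had the largest fall. It lies on chromosome 11 from 102317450 to 102339403 (hg38, plus strand). Its FPKM were 137, 114 and 93.7 in the controls numbered 1, 2 and 3 and 30.4, 38.9 and 29.2 in the mimic samples of the same numbers. Every mimic sample was thus below every control, by a margin larger than the spread within either group. Group means were 115 ± 21.7 and 32.9 ± 5.29 FPKM (SD, n = 3 each), with a log2 fold change of -1.78 on the log2(FPKM + 0.5) scale (SE 0.18, limma adjusted p = 0.000163). A fall at least as large was seen in 4.14% of tested genes. BIRC3 remained lower on each other scale tried, by -1.46 after median-of-ratios scaling, -1.80 after quantile normalization and -1.11 after correction for GC content and length.

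BIRC2, the paralog next to BIRC3, starts 7808 bases after the end of BIRC3 on the same strand (chromosome 11, 102347211 to 102378670). Its FPKM were 12.5, 12.3 and 11.1 in the controls and 5.88, 6.72 and 8.37 in the mimic samples. All 3 mimic samples lay below the controls, mimic sample 3 nearest to them. The log2 fold change was -0.75 (SE 0.15, limma adjusted p = 0.00437). This call depended on the scale, since adjusted p was 0.064 after median-of-ratios scaling (-0.44), 0.054 after quantile normalization (-0.44) and 0.217 after GC and length correction (-0.25). A ratio within each sample needs no scaling of libraries. The ratio of BIRC3 to BIRC2 FPKM was 11.0, 9.25 and 8.45 in the controls and 5.18, 5.79 and 3.49 in the mimic samples, lower in each mimic sample than in any control, at 0.496 of the control value on average (exact permutation p = 0.1, the smallest possible). The genes on either side of this pair did not pass the test. YAP1, a transcriptional coactivator gene 84027 bases before BIRC3, had a log2 fold change of -0.11 (SE 0.21, adjusted p = 0.686), and TMEM123, 17662 bases after BIRC2, of 0.08 (SE 0.14, adjusted p = 0.682).

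BIRC3 is a known NF-kappaB target, so the 250 bases before its RefSeq start are shown (chr11:102317234-102317483, GRCh38.p14, plus strand), with matches to the NF-kappaB consensus in capitals.
BIRC3 upstream: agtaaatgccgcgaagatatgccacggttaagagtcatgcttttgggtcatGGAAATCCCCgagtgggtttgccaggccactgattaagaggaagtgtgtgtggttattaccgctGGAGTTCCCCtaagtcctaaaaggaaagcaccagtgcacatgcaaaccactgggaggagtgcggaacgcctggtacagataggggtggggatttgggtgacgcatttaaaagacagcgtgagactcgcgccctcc
The matches begin 199 and 135 bases before the start, both read on the opposite strand, and do not overlap. RefSeq windows of 300 bases (250 before and 50 after a start) were at hand for 7 of the 8 genes, 17 windows in all. Besides BIRC3, 1 of the 2 BIRC6 windows held a match, at 1 place that fits the consensus on both strands, and both BIRC2 windows held none. Of 35116 windows of all genes 11.3% held a match on either strand. A match describes the sequence only and says nothing about binding in these cells.

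BIRC6 lies on chromosome 2 from 32357028 to 32618899 (hg38, plus strand). Its FPKM were 24.8, 22.8 and 19.2 in the controls and 14.4, 9.95 and 12.7 in the mimic samples, so the groups were apart. The log2 fold change was -0.83 (SE 0.17, limma adjusted p = 0.00415), and -0.52 (adjusted p = 0.0298) after median-of-ratios scaling. After GC and length correction it was -0.27 (adjusted p = 0.274), which ends the call. BIRC6 has the longest exon sequence of the 8, at 17858 bases. Among the 7 annotated genes inside it, the sense intronic ENSG00000276334 was at 3.93, 3.40 and 3.38 FPKM in the controls and 1.40, 1.55 and 1.17 in the mimic samples, and the antisense BIRC6-AS1 was listed at 0. No source used here gives the strand setting of the counting, so reads of overlapping genes cannot be told apart.

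XIAP, the only one of the 8 with seed matches, was also the lowest, on chromosome X from 123859724 to 123913979 (hg38, plus strand). It was at 1.79, 2.67 and 2.06 FPKM in the controls and 1.40, 1.54 and 1.85 in the mimic samples. Mimic sample 3 lay above control sample 1, so the groups overlapped. The log2 fold change of -0.34 (SE 0.18, limma adjusted p = 0.137) did not pass, and its sign turned after quantile normalization (0.36) and after GC and length correction (0.23). BIRC8, an intronless close relative that could share its reads, was listed at 0 in all 6 samples. The pseudogene PARD6BP1, inside XIAP on the opposite strand, was listed at 0.134 to 0.224 FPKM in the controls and at 0 in every mimic sample.

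The IAP genes outside these 5 were looked at for comparison. NAIP, a sensor of bacterial flagellin with BIR domains, was at 4.47, 4.38 and 4.85 FPKM in the controls and 1.45, 1.30 and 1.51 in the mimic samples (log2 fold change -1.40, SE 0.14, limma adjusted p = 0.000139), with -0.79 after quantile normalization and -0.91 after GC and length correction. NAIP lies among partial copies of itself, so the assignment of its reads is uncertain. BIRC7 stayed at or below 0.195 FPKM. Of 6 tested IAP genes 4 were lower and 1, BIRC5, was higher, against 39.6% and 12.0% of all genes. Scaled by median of ratios, 3 were lower and 1 was higher, beside 27.4% and 26.9% of all genes. After GC and length correction 2 were lower and 1 was higher, beside 22.7% and 27.4%.

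BIRC5 went the other way. It lies on chromosome 17 from 78214186 to 78225636 (hg38, plus strand). Its FPKM were 6.998, 7.10 and 8.47 in the controls and 18.6, 17.2 and 15.7 in the mimic samples. The lowest mimic sample was thus well above the highest control. Means were 7.52 ± 0.819 and 17.2 ± 1.46 FPKM (SD, n = 3 each), a log2 fold change of 1.14 (SE 0.14, limma adjusted p = 0.000319), and 1.79% of tested genes rose at least as far. The rise was called on each scale, from 1.14 to 1.45 (the value after median-of-ratios scaling).

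The partners of BIRC5 in the passenger complex and in mitosis had smaller fold changes. INCENP, the scaffold of the complex, was at 20.4, 22.3 and 18.7 FPKM in the controls and 24.5, 31.4 and 27.3 in the mimic samples (log2 fold change 0.43, SE 0.14, limma adjusted p = 0.0349). This call was lost when any of control samples 1, 2 and 3 or mimic samples 2 and 3 was left out, with adjusted p of 0.0527 to 0.111. RCC2, a mitotic regulator, had a log2 fold change of 0.44 (SE 0.13, adjusted p = 0.0217), lost without control sample 1 (0.0768), control sample 3 (0.0703) or mimic sample 2 (0.0529). Scaled by median of ratios, INCENP had 0.75 and RCC2 0.76. The kinase gene AURKB was at 106, 107 and 105 FPKM in the controls and 92.2, 91.7 and 84.8 in the mimic samples (-0.24, SE 0.12, adjusted p = 0.129), and the subunit gene CDCA8 had 0.21 (SE 0.14, adjusted p = 0.236), neither passing. Within samples, the ratio of BIRC5 to AURKB FPKM was 0.0659, 0.0663 and 0.0809 in the controls and 0.202, 0.188 and 0.185 in the mimic samples, a 2.71-fold difference. The ratio of BIRC5 to CDCA8 was 0.314, 0.283 and 0.417 in the controls and 0.660, 0.650 and 0.666 in the mimic samples. The list of the passenger complex and mitotic partners of BIRC5 also held XPO1 (-0.23, SE 0.21, limma adjusted p = 0.395), which did not pass. Among its 6 tested genes 3, BIRC5, INCENP and RCC2, were higher and none lower. Of all genes 12.0% were higher and 39.6% lower, and the median was 0.32 in the list beside -0.29. Scaled by median of ratios 4 were higher and none lower, beside 26.9% and 27.4%, with a median of 0.64 beside 0.01. After quantile normalization 4 were higher and 1 lower, beside 3592 and 3289 of all 14439 genes. BIRC5 alone stayed called, 1 higher of 6, without control sample 1, control sample 3 or mimic sample 2. Beside it 1342, 1256 and 1261 of all 14439 genes were higher.

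**Figure D2:**
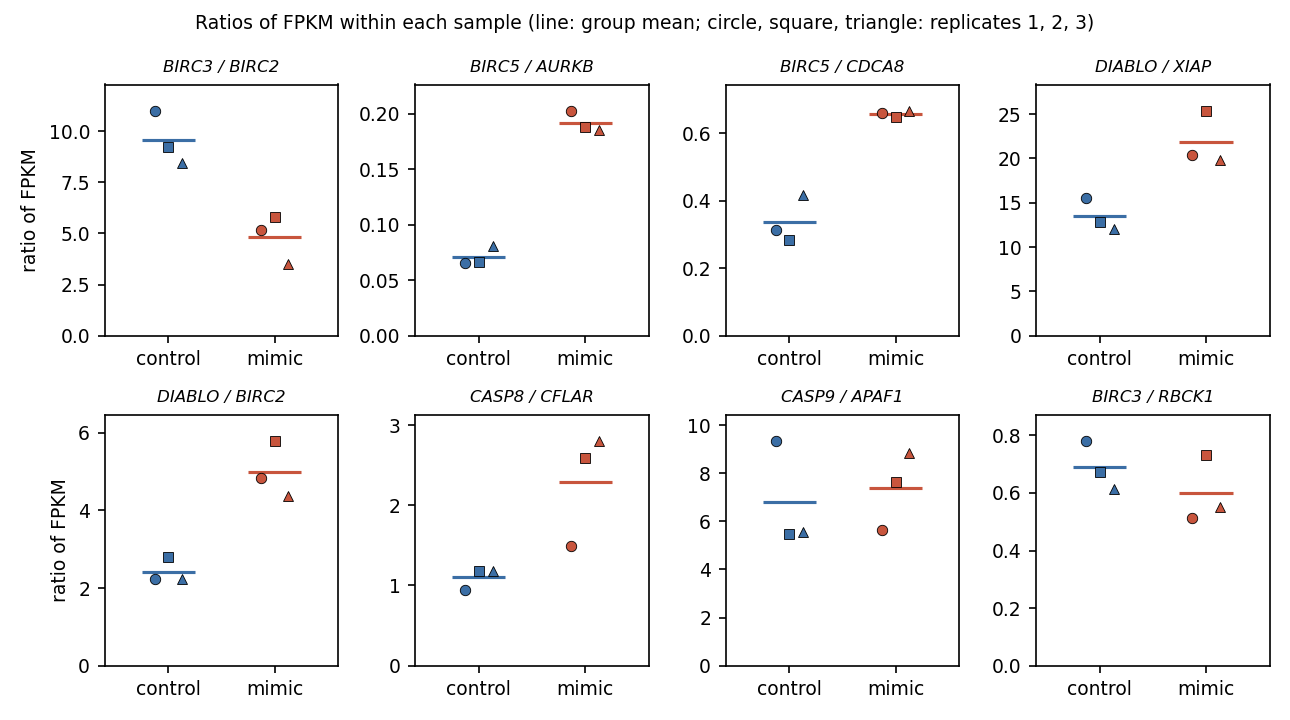
Ratio of the FPKM of 2 genes in the same sample (vertical axis from 0) for 8 gene pairs, with control samples in blue, mimic samples in red and a line at the group mean. The groups are apart in the first 6 panels and overlap for CASP9 over APAF1 and BIRC3 over RBCK1.

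DIABLO lies on chromosome 12 from 122207662 to 122227534 (hg38, minus strand). It was at 27.8, 34.3 and 24.9 FPKM in the controls and 28.4, 38.8 and 36.6 in the mimic samples. The ranges overlapped, because mimic sample 1 was below control sample 2. The log2 fold change of 0.25 (SE 0.17, limma adjusted p = 0.257) did not pass on the deposited scale. It did pass after median-of-ratios scaling (0.57, adjusted p = 0.0262) and after GC and length correction (0.60, adjusted p = 0.0196), but not after quantile normalization (0.31, adjusted p = 0.184). DIABLO overlaps B3GNT4 on the opposite strand, listed at 0.319 to 1.87 FPKM, and a read-through gene on its own strand at up to 0.148 FPKM.

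Set against XIAP and BIRC2 in the same sample, DIABLO stood higher in the mimic samples. Its ratios to the other IAP genes were not made, and BIRC5 among them rose by more than DIABLO (log2 fold change 1.14 against 0.25). Its ratio to XIAP was 15.5, 12.9 and 12.1 in the controls and 20.3, 25.3 and 19.8 in the mimic samples, a 1.62-fold difference. This ratio rests on the low levels of XIAP, 1.40 to 2.67 FPKM. It also depended on the scale, since DIABLO had a log2 fold change of 0.31 and XIAP of 0.36 after quantile normalization. After GC and length correction they had 0.60 and 0.23. Its ratio to BIRC2 was 2.22, 2.79 and 2.24 in the controls and 4.83, 5.78 and 4.38 in the mimic samples, a 2.06-fold difference. The 8 ratios were chosen after their values were seen. For the 6 with separate groups the two-sided exact permutation p was 0.1, the smallest that 3 samples against 3 allow, and 0.133 adjusted over the 8, so none could pass 0.05.

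The list of IAP antagonists and modulators, DIABLO included, had 2 of 5 tested genes higher and 1 lower, beside 12.0% and 39.6% of all genes. Scaled by median of ratios it had 3 higher, DIABLO now among them, and 1 lower, beside 26.9% and 27.4%. No gene of this list was called higher without control sample 1, mimic sample 2 or mimic sample 3, beside 1342, 1261 and 1822 of all 14439 genes. Without control sample 3 or mimic sample 1, 1 was, beside 1256 and 1549 of all genes. XAF1, an interferon-inducible antagonist of XIAP, fell from 6.51, 7.16 and 5.31 FPKM to 0.931, 2.35 and 1.08 (log2 fold change -1.87, SE 0.26, limma adjusted p = 0.000687). NLRP1, an inflammasome sensor, had 0.52 (SE 0.16, adjusted p = 0.0257), lost without control sample 1 (0.102), mimic sample 2 (0.0674) or mimic sample 3 (0.071), and 0.81 when scaled by median of ratios. GSPT1, a translation termination factor whose processed form binds IAPs, was at 19.0, 66.2 and 17 FPKM in the controls and 74.6, 92.0 and 81.4 in the mimic samples. Control sample 2 lay nearer to the mimic samples than to the other controls, and the call (1.55, SE 0.48, adjusted p = 0.0316) was lost without control sample 1 (0.104), control sample 3 (0.0934) or any 1 mimic sample (0.0725 to 0.111). The mitochondrial protease gene HTRA2, another IAP antagonist, was at 29.9, 27.6 and 28.2 against 28.2, 25.4 and 22.6 FPKM (-0.17, SE 0.13, adjusted p = 0.300) and did not pass.

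The initiator caspase genes did not pass the test. CASP8 lies on chromosome 2 from 201233443 to 201287711 (hg38, plus strand). Its FPKM were 19.3, 20.2 and 22.5 in the controls and 18.4, 21.5 and 19.4 in the mimic samples, with overlapping ranges. The log2 fold change was -0.06 (SE 0.13, limma adjusted p = 0.721). It was 0.26 (adjusted p = 0.138) after median-of-ratios scaling and 0.37 (adjusted p = 0.0329, a call) after GC and length correction, so no direction can be given for CASP8 without naming a scale. Its means were 20.6 ± 1.65 and 19.8 ± 1.57 FPKM (SD, n = 3 each).

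CASP9 lies on chromosome 1 from 15490832 to 15526534 (hg38, minus strand). It was at 34.0, 16.6 and 17.2 FPKM in the controls and 10.6, 14.9 and 14.7 in the mimic samples. Control sample 1 held about the sum of the other 2 controls, and the remaining controls lay only slightly above mimic samples 2 and 3. The log2 fold change was -0.67 (SE 0.28, limma adjusted p = 0.0819), and -0.34 (adjusted p = 0.2) without control sample 1. CELA2B, which overlaps CASP9 on the opposite strand, was listed at 0.554 FPKM in control sample 1 and at most 0.377 in the others.

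**Figure D3:**
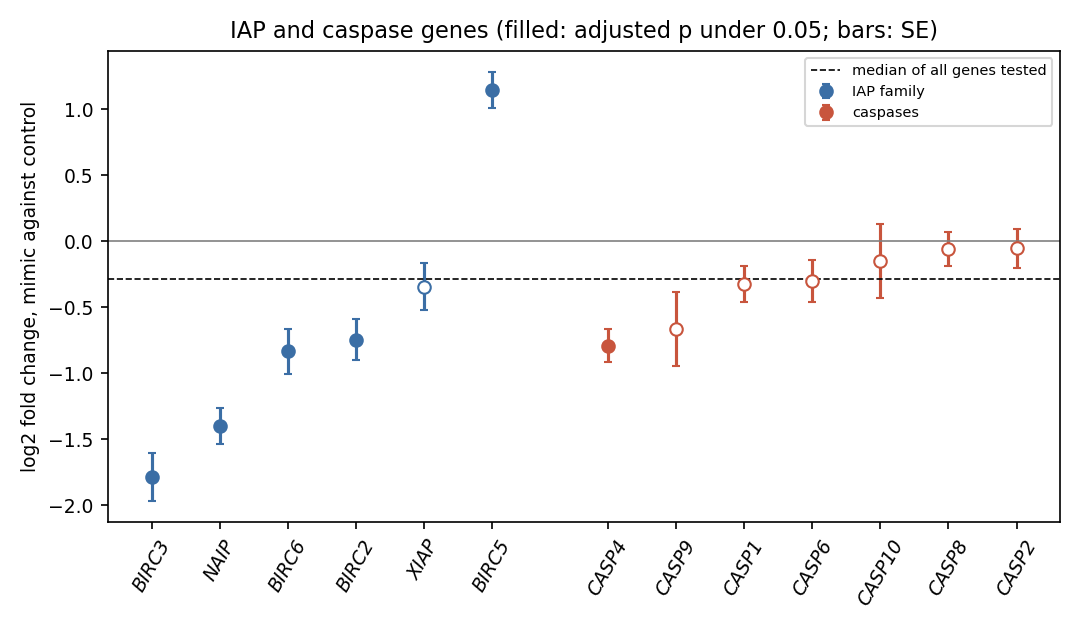
Log2 fold change of mimic against control with its SE for the 6 tested IAP genes (blue) and 7 of the 9 tested caspase genes (red), each ordered from low to high, with filled points for adjusted p under 0.05 and a dashed line at the median of all tested genes (-0.29). The IAP genes spread from -1.78 to 1.14, and the caspases shown other than CASP4 have open points.

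Few caspase genes passed the test. Of 9 tested, 1 was lower and none higher by limma, against 39.6% and 12.0% of all genes and with the same counts when scaled by median of ratios. The lower one was CASP4, the inflammatory caspase that senses cytosolic lipopolysaccharide, at 107, 109 and 104 FPKM in the controls and 56.7, 63.8 and 64.2 in the mimic samples (-0.79, SE 0.12, adjusted p = 0.00113). The value was -0.47 when scaled by median of ratios, and the call was lost after GC and length correction (-0.24, adjusted p = 0.0894). CASP6 did not pass, at 7.37 ± 0.223 FPKM in the controls and 5.96 ± 1.14 in the mimic samples (SD, n = 3 each). CASP1, an inflammatory caspase, had -0.33 (SE 0.14, adjusted p = 0.075). CASP2 (-0.05, SE 0.15) and CASP10 (-0.15, SE 0.28), the neighbour of CASP8 with a similar role, did not pass either. CASP5, CASP12 and CASP14 were under the filter. Without control sample 3 the list had 2 lower genes, beside 5305 of all 14439 genes. After GC and length correction it had 1 higher, CASP8, and none lower, beside 27.4% and 22.7% of all genes.

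The pathway around CASP8 was read from a list of death receptor genes. Of 17 tested genes of death receptors and their signalling complex, 6 were lower and 2, FADD and TNFRSF1A, higher, shares close to the 39.6% and 12.0% of all genes. Scaled by median of ratios, 6 were lower and 5 higher, beside 27.4% and 26.9%, with medians of -0.15 before and 0.08 after. The TNF receptor gene TNFRSF1A was at 36.1, 36.4 and 33.7 FPKM in the controls and 90.4, 38.2 and 115.8 in the mimic samples, of which sample 2 lay next to the controls. Its log2 fold change of 1.05 (SE 0.37, limma adjusted p = 0.0446) was not called after quantile normalization (0.0594) or when any sample but mimic sample 2 was left out (0.0946 to 0.169). The number called higher was 0 without control sample 3, 2 without mimic sample 2 and 1 without any other single sample. Of all 14439 genes 1256 were higher without control sample 3 and 1261 without mimic sample 2. Without any other single sample 1342 to 1822 were higher, against 1735 with all samples. RBCK1, a subunit of the linear ubiquitin ligase that BIRC2 and BIRC3 help to recruit, fell from 176, 169 and 152 FPKM to 59.2, 53.1 and 52.9 (log2 fold change -1.58, SE 0.13, limma adjusted p = 7.34e-05). The other subunits, RNF31 (0.32, SE 0.14, adjusted p = 0.0999) and SHARPIN (0.06, SE 0.14, adjusted p = 0.765), did not pass. The ratio of BIRC3 to RBCK1 was 0.779, 0.674 and 0.614 in the controls and 0.514, 0.733 and 0.553 in the mimic samples, and these overlapped (exact permutation p = 0.3). CASP8AP2, a CASP8-binding nuclear protein gene, fell from 8.66, 8.19 and 8.50 FPKM to 3.01, 4.22 and 3.46 (-1.15, SE 0.15, adjusted p = 0.000437), and by less after quantile normalization (-0.73) or GC and length correction (-0.54). TNFSF10, which encodes the death ligand TRAIL, fell from 14.7, 13.3 and 13.8 to 5.12, 6.60 and 6.97 (-1.11, SE 0.15, adjusted p = 0.000503), or -0.67 after GC and length correction.

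CFLAR, FADD, FAS, RIPK1 and TNFRSF1A were named after their values were seen. CFLAR, the inhibitor that competes with CASP8 at the receptor, was at 20.4, 17.1 and 19.0 FPKM in the controls and 12.3, 8.29 and 6.93 in the mimic samples (-1.03, SE 0.20, limma adjusted p = 0.00357), and this call ended after GC and length correction (-0.47, adjusted p = 0.11). The ratio of CASP8 to CFLAR was 0.943, 1.18 and 1.18 in the controls and 1.49, 2.59 and 2.80 in the mimic samples. FAS, FADD and RIPK1 each hold an 8mer match to the microRNA in the 3' UTR, the longest class, and GSPT1, described above, holds 2, besides 2 of the class 7mer-m8. These 4 were the listed genes with an 8mer, shown with the bases around it.
FAS match: aaatgtaaACTGTGAAgatagtta
FADD match: agcccagcACTGTGAAgacccagc
RIPK1 match: ctctgtgtACTGTGAAagtatttt
GSPT1 match 1: ttttcttaACTGTGAAattcccat
GSPT1 match 2: ggatatcaACTGTGAAgggcctac
They lie on chromosome 10 from 89015648 to 89015655 (FAS), chromosome 11 from 70206553 to 70206560 (FADD) and chromosome 6 from 3114321 to 3114328 (RIPK1), all GRCh38 and plus strand, and in GSPT1 on chromosome 16 from 11871264 to 11871271 and from 11870852 to 11870859 (minus strand). The receptor gene FAS fell from 20.2, 29.01 and 10.3 FPKM to 8.65, 7.68 and 5.24 (-1.31, SE 0.36, limma adjusted p = 0.0175), and the call was lost without control sample 1 (0.0598), without mimic sample 3 (0.0597) or after GC and length correction (0.0722). The adaptor gene FADD rose from 12.3, 13.9 and 10.3 to 26.6, 17.7 and 16.4 (0.69, SE 0.20, adjusted p = 0.0216), lost without control sample 3 (0.0708). The kinase gene RIPK1 had -0.26 (SE 0.13, adjusted p = 0.122) and did not pass. Genes with the same class of match thus had values on both sides of 0. Among the 63 listed pathway genes that were tested and had a 3' UTR, 12 held a match of any class, of which 4 were lower, 2 higher and 6 not called. Of the 51 without a match, 12 were lower, 11 higher and 28 not called. Of all tested genes 39.6% were lower and 12.0% higher. Whether a match goes with a call was not tested.

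The apoptosome list, which contains CASP9, had 1 of 9 genes lower and 2 higher, beside 39.6% and 12.0% of all genes. When scaled by median of ratios it had 1 lower and 4 higher, beside 27.4% and 26.9%, and after quantile normalization or GC and length correction none lower and 4 higher. Over all 14439 genes 3289 were lower and 3592 higher after quantile normalization. After GC and length correction 22.7% of all genes were lower and 27.4% higher. Without control sample 3 there were 2 lower and 1 higher, beside 5305 and 1256 of all 14439 genes. APAF1, the scaffold that activates CASP9, fell from 3.64, 3.04 and 3.09 FPKM to 1.89, 1.95 and 1.66 (-0.69, SE 0.15, limma adjusted p = 0.00509), by -0.42 when scaled by median of ratios, but not after GC and length correction (-0.22, adjusted p = 0.167) or quantile normalization (-0.05, adjusted p = 0.749). It holds 1 match of the class 7mer-m8. The ratio of CASP9 to APAF1 was 9.32, 5.47 and 5.57 in the controls and 5.64, 7.64 and 8.85 in the mimic samples (exact permutation p = 0.8). HSPA1A, a chaperone that restrains apoptosome assembly, rose from 98.0, 118 and 102 to 231, 227 and 230 FPKM (1.11, SE 0.14, adjusted p = 0.000342), although it has a near-identical copy that could share its reads. The APAF1 inhibitor gene AVEN rose by 0.55 (SE 0.15, adjusted p = 0.0162), a call lost without control sample 3 (0.0548), and by 0.85 when scaled by median of ratios.

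In the noncanonical NF-kappaB list, which contains BIRC2 and BIRC3, 4 of 11 genes were called lower and 1 higher, shares near the 39.6% and 12.0% of all genes. The split was 2 and 3 when scaled by median of ratios, beside 27.4% and 26.9%. It was 1 and 1 after quantile normalization, beside 3289 lower and 3592 higher of all 14439 genes. After GC and length correction it was 1 and 1 too, beside 22.7% and 27.4%. Besides BIRC2, BIRC3 and TNFRSF11A the lower genes held the kinase gene CHUK (-0.70, SE 0.20, limma adjusted p = 0.0206), which was not called without control sample 1 (0.0731). CHUK was not called on the other scales either, at -0.39 (adjusted p = 0.0797) when scaled by median of ratios, -0.35 (0.112) after quantile normalization and -0.09 (0.685) after GC and length correction. The higher gene was the receptor gene LTBR (0.45, SE 0.15, limma adjusted p = 0.0359), not called after quantile normalization (0.1) or when any sample but mimic sample 1 was left out (0.0582 to 0.125). Both were named after their values were seen. MAP3K14, the kinase that BIRC2 and BIRC3 keep low at the protein level, was at 3.78, 3.28 and 4.07 FPKM in the controls and 4.73, 4.51 and 3.87 in the mimic samples (0.21, SE 0.15, limma adjusted p = 0.257). NFKB2 (-0.11, SE 0.14) and RELB (0.04, SE 0.23), the subunits at the end of the pathway, did not pass, and neither did the adaptor genes TRAF2 (-0.14, SE 0.18) and TRAF3 (-0.23, SE 0.14). The receptor gene TNFRSF11A was lower (-0.75, SE 0.20, adjusted p = 0.0126), but its value was 0.07 after quantile normalization and -0.43 (adjusted p = 0.0747) after GC and length correction.

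Among caspase substrates and nucleases 2 of 10 genes were called lower and 3 higher, beside 39.6% and 12.0% of all genes, a split of 1 and 4 when scaled by median of ratios, beside 27.4% and 26.9%. DFFA, the inhibitor of the apoptotic DNase, rose from 9.68, 9.68 and 8.87 FPKM to 15.2, 15.7 and 13.8 (0.63, SE 0.12, limma adjusted p = 0.00331). GSDME, a pore-forming protein cleaved during apoptosis, fell from 21.6, 22.2 and 18.5 to 10.5, 13.9 and 12.3 (-0.74, SE 0.15, adjusted p = 0.00371), by -0.43 when scaled by median of ratios and -0.38 after GC and length correction. ROCK1, a kinase that drives membrane blebbing, had -0.76 (SE 0.17, adjusted p = 0.00552), and was not called when scaled by median of ratios (-0.46, adjusted p = 0.0672), with quantile normalization (-0.44, 0.084) or with GC and length corrected (-0.20, 0.288). PARP1, a DNA repair enzyme cleaved by caspases, rose by 0.67 (SE 0.16, adjusted p = 0.00917), and the lamin gene LMNB1 by 0.71 (SE 0.21, adjusted p = 0.0229), a call lost without either of control samples 1 and 3 or mimic samples 1 and 2 (0.056 to 0.0825). Both were named after their values were seen.

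**Figure D4:**
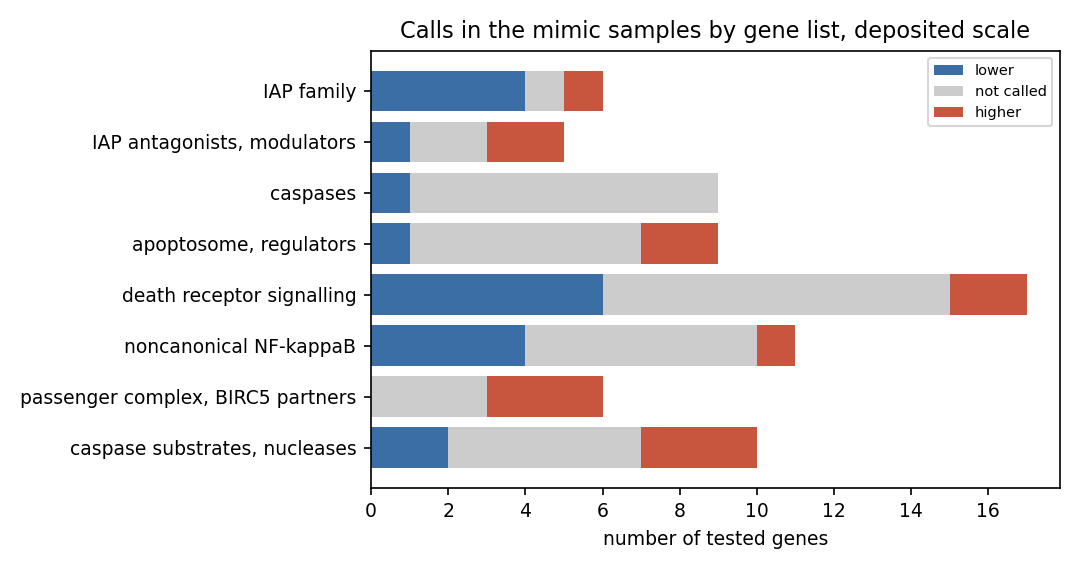
Number of tested genes per list (horizontal axis) that were lower (blue), not called (grey) or higher (red) in the mimic samples by limma on the deposited scale. Of all genes 39.6% were lower and 12.0% higher. The IAP list has 4 lower of 6 and the caspase list 1 lower of 9. The list of the passenger complex and mitotic partners of BIRC5 has 3 higher of 6, BIRC5, INCENP and RCC2, and none lower. After GC and length correction the IAP list has 2 lower, beside 22.7% of all genes. After quantile normalization the list of BIRC5 and its partners has 1 lower, beside 3289 of all 14439 genes.

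The order of levels among the 8 genes differed between the groups, and FPKM, which is per length, allows it to be read. In controls BIRC3 came first at 115 FPKM, followed by DIABLO (28.98), CASP9 (22.6), BIRC6 (22.2) and CASP8 (20.6), which as neighbours in that order overlapped in their ranges. BIRC2 (12.0), BIRC5 (7.52) and XIAP (2.17) followed, each clear of its neighbour. The place of CASP9 in the controls rests on control sample 1 (34.0 FPKM). In control samples 2 and 3 CASP9 (16.6 and 17.2) lay below both BIRC6 (22.8 and 19.2) and CASP8 (20.2 and 22.5). In mimic samples DIABLO (34.6) and BIRC3 (32.9) led with overlapping ranges, then came CASP8 (19.8) and BIRC5 (17.2), also overlapping, CASP9 (13.4) and BIRC6 (12.3), again overlapping, and BIRC2 (6.99) and XIAP (1.59). BIRC5 moved from place 7 to 4 and BIRC3 from 1 to 2.

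**Figure D5:**
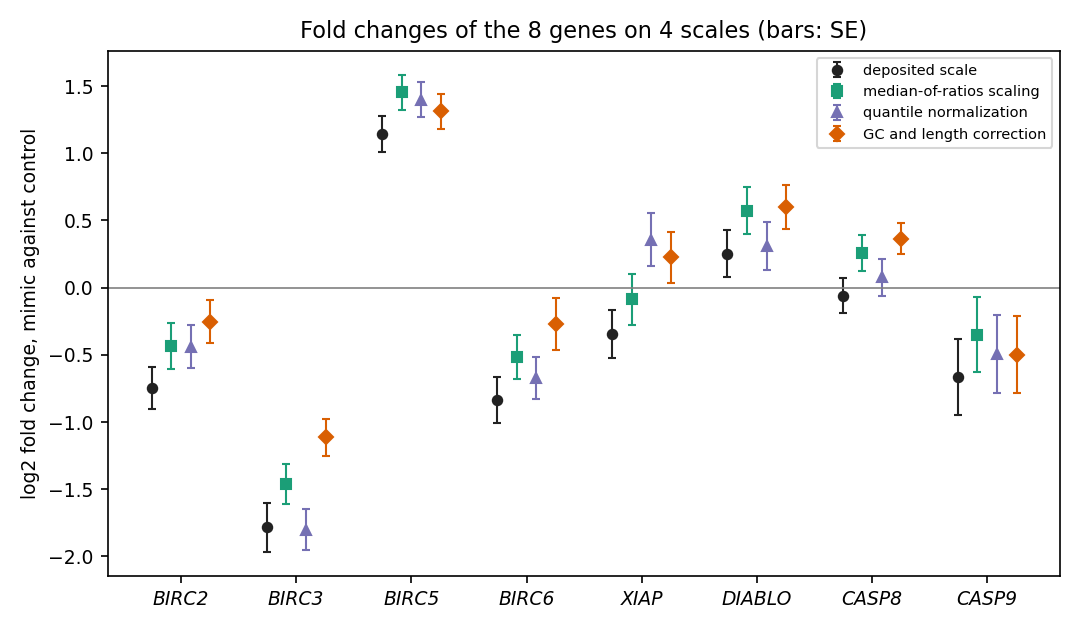
Log2 fold change of mimic against control with its SE for each gene on the deposited scale and after 3 other treatments of the values. BIRC3 stays below and BIRC5 above 0 on all 4, while CASP8 and XIAP lie on both sides of 0.

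BIRC3 had the smallest p of the 8, and the genes whose pattern over the 6 samples was most like it were found by the root mean square difference of centred log2(FPKM + 0.5) values. They were AMT, a glycine cleavage enzyme gene (difference 0.0793, log2 fold change -1.66, SE 0.20), the histone gene H2BC4 (0.0932, -1.78, SE 0.20) and the small nucleolar RNA gene SNORD101 (0.0971, -1.87, SE 0.16). AMT was low, at 2.74, 2.07 and 1.62 FPKM in the controls and 0.257, 0.448 and 0.286 in the mimic samples. The 0.5 added before the log understates the fall of a gene at such levels, so its likeness to BIRC3 depends on that constant.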

How the data were processed

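Each gene has 1 deposited value per sample, an FPKM calculated by the authors, per the file headers. HISAT2, FastQC and the build hg38 are named by the submitters' processing notes. No source used here names versions, the FPKM tool, its strand setting or the annotation. The 6 single-sample tables were identical to the series table. Genes whose 6 values averaged 1 FPKM or more were tested with limma-trend (limma 3.58.1, R 4.3.3) with robust moderation on log2(FPKM + 0.5), no covariates, and Benjamini-Hochberg adjustment over all genes at 0.05. That scale understates changes of low genes. edgeR, named in the design for count files, was not used, since the files hold FPKM and low values were whole multiples of 1 fragment, within 1%, in only 8.34% to 12.3% of cases. Interval or detection limits are therefore not given.

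The 8 genes, the 8 lists and the marker lists were chosen with earlier results of these data known. Genes named by rule are the 8, up to 3 called genes with the smallest p per list, all tested IAP genes, the tested caspase genes except 2 that are not reported here, the 3 genes most like BIRC3 and the absent liver markers. Other genes named, partners, neighbours or members of the lists, were chosen after their values were seen. Symbols came from a table that matched 57392 identifiers. Seed matches were searched in the longest 3' UTR of GENCODE 29 transcripts, and promoters are from RefSeq on GRCh38.p14. The limma step was tested on simulated data. Alternatives were other pseudocounts, filters, scalings, a replicate block, GC and length correction, and leaving out samples.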

Additional observations from a re-analysis of the deposited data

How the results depend on the processing

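BIRC3 and BIRC5 kept their direction and their call under all 18 alternatives, from -1.92 to -1.11 and from 1.09 to 1.45 on the log2 scale. BIRC2 was not called after median-of-ratios scaling (-0.44), quantile normalization (-0.44) or GC and length correction with and without the replicate block (-0.25 each), nor was BIRC6 under that correction (-0.27 each). XIAP turned to 0.36 after quantile normalization and 0.23 after GC and length correction with and without the block. DIABLO was called at 0.57 after median-of-ratios scaling and 0.60 after GC and length correction with and without the block. CASP8 turned to 0.26 after median-of-ratios scaling, 0.075 after quantile normalization, 0.00593 with mitochondrial genes left out, and 0.37 after GC and length correction with and without the block. The causes were not tested. Leaving out samples, sample 3 of both groups included, gave ranges of -0.93 to -0.64 for BIRC2, -1.92 to -1.65 for BIRC3, 1.09 to 1.29 for BIRC5, -0.96 to -0.69 for BIRC6, -0.46 to -0.22 for XIAP, 0.10 to 0.39 for DIABLO, -0.12 to 0.013 for CASP8 (0.000461 without control sample 3) and -0.89 to -0.34 for CASP9. The count of the 8 genes stayed at 1 higher and 3 lower in each of these. It was 2 higher after median-of-ratios scaling, and 3 higher and 1 lower after GC and length correction with and without the block. Of 64 tested pathway genes 13 were higher and 17 lower, beside 12.0% and 39.6% of all genes. Higher genes numbered 7 with no filter on low values, beside 1530 of all 35796 genes, and 23 after median-of-ratios scaling (26.9% of all genes). There were 21 when GC and length were corrected with the block, beside 4063 of all 14402 genes. Without single samples there were 5 to 11, beside 1256 to 1822 of all 14439 genes. Without sample 3 of both groups there were 6 (9.19% of all genes). They were fewest, at 5, without control sample 3, beside 1256 of all genes. Lower genes numbered 8 after GC and length correction (22.7% of all genes) and 9 with the block added, beside 3269 of all 14402 genes. Lower genes numbered 15 to 19 without single samples, beside 4695 to 5732 of all 14439 genes. TNFRSF11A turned to 0.072 after quantile normalization. XIAP could not be tested at a mean of at least 5 FPKM.

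Over all genes, higher genes made up 23.3% of calls without scaling, 49.6% when scaled by median of ratios and 52.2% after quantile normalization. Whether the replicate numbers pair the samples is not settled here. Deviations from the group means correlated at 0.18, -0.05 and 0.22 for samples numbered 1, 2 and 3. Between samples of different numbers the correlations ran from -0.28 to 0.13. With the replicate number as a block alone, BIRC2, BIRC3, BIRC5 and BIRC6 remained the called genes of the 8, at the same fold changes. TNFRSF1A was not called with the block (adjusted p = 0.0516), and the list of caspase substrates had 4 lower genes with it against 2. In the death receptor list 1 gene was higher against 2, and in the noncanonical NF-kappaB list 2 against 1. Of all 14439 genes 5994 were lower and 2117 higher with the block, against 5718 and 1735 without it.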
